A study of Homo sapiens with 2 samples.

Results

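The genes of the proteasome, the protease complex that degrades ubiquitin-tagged proteins, were compared between 2 RNA-seq libraries of Huh7 cells. All rows of the deposited table whose symbol started with PSMA to PSMG and a number, and whose description did not name a pseudogene, were taken, which gave 56 members of 61541 rows. Of these, 48 were genes of proteasome proteins and 8 were other rows that the name pattern also matched, namely 6 antisense or divergent transcripts and PSMC3IP and PSME3IP1, whose proteins are not proteasome subunits. At least 10 reads in total were found for 50 members, 46 of them proteasome protein genes, and these were tested.

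Huh7 is a human hepatoma cell line. One library came from cells given a control siRNA (Huh7-NC) and 1 from cells given siRNA against BRF2 (Huh7-si), with total RNA as the starting material in both. BRF2 is a subunit of an RNA polymerase III initiation factor that acts at promoters such as that of U6. The labels do not say which of the study's BRF2 siRNAs was sequenced or how long after transfection. With 1 library for each condition there was no replicate, so every test here compares the 2 libraries and not the conditions.

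The proteasome core particle (20S) is a stack of rings, with alpha subunits in the outer rings, which gate the entry, and beta subunits in the inner rings, some of which cut the substrate. The regulatory particle (19S) caps the core, and consists of a ring of ATPases that unfold the substrate and of non-ATPase subunits that bind ubiquitin chains and remove them. Dedicated chaperones assemble both particles, and other activators can replace the 19S cap. Transcription of the subunit genes is known to be raised together by NFE2L1, which binds antioxidant response elements in their promoters, while interferons induce alternative catalytic subunits and the PSME1 and PSME2 activator.

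The promoters of 5 genes that the results turn on are shown to place these elements. Each is the stretch of 250 bases before the gene's RefSeq start on GRCh38.p14, 5′ to 3′ along the gene. The capitals mark TGACNNNGC, the core letters of the antioxidant response element, and GAAA, any 2 bases and GAAA again, the core letters of the interferon-stimulated response element (ISRE), on either strand. PSMB3 (a beta subunit), PSME1 and PSMB10 were among the members with the lowest ratios, PSME2 is the partner of PSME1, and PSME4 had the highest ratio of the protein genes. All 5 windows hold a marked element, but they are examples and do not stand for the members. PSMA2 and PSMA5 had lower ratios than PSMB3, and their windows held neither element.
PSMB3, chr17:38752491-38752740, plus strand: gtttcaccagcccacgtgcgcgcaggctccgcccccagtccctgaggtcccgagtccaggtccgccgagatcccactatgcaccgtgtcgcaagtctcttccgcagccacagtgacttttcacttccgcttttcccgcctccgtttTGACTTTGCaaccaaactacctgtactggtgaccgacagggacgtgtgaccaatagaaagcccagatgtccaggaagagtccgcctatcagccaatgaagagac
PSMB10, chr16:67936851-67937100, minus strand: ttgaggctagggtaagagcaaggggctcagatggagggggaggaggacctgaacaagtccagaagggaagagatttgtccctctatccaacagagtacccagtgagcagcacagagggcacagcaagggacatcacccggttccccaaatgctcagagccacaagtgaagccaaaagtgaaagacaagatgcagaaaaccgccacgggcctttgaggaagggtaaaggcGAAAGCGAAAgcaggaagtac
PSME1, chr14:24135944-24136193, plus strand: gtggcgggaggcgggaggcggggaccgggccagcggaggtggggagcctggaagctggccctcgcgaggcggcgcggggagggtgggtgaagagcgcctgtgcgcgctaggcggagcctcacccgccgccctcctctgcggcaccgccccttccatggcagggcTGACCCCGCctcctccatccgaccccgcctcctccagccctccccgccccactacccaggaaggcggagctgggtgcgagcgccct
PSME2, chr14:24146611-24146860, minus strand: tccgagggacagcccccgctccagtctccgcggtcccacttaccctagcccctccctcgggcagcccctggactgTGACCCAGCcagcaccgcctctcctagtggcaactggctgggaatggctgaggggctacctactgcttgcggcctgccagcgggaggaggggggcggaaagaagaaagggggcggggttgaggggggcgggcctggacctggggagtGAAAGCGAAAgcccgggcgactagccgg
PSME4, chr2:53970994-53971243, minus strand: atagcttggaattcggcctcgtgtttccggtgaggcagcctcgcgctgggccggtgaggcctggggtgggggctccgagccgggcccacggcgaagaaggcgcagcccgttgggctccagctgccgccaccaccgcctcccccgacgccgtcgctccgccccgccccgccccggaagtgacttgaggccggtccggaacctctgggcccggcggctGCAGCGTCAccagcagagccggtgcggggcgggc

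A promoter entry was found for 50 of the 56 members and 42 of the 48 protein genes, whose 51 windows (some genes have several starts) were searched on both strands. TGACNNNGC was present in 25.5% of these windows, against 10.9% of 35116 windows over all genes. The ISRE core was present in 9.80% of them, against 3.02%, CCGGAAG, the letters that ETS-family factors bind, in 21.6%, against 8.52%, CCAAT, the letters bound by NF-Y, in 37.3%, against 32.0%, and TTCNNNGAA, the letters of the gamma-activated site that STAT factors bind, in 13.7%, against 6.57%. Over the 17320 windows of tested genes the shares were, in the same order of motifs, 11.7%, 2.44%, 13.0%, 32.8% and 5.47%. The tested protein genes with TGACNNNGC in a window numbered 13, with a median log2 ratio between the libraries of -0.38 and a range of -0.75 to 0.49, and the 27 without it had a median of -0.45 and a range of -0.92 to -0.14. The split went the other way for the ISRE core, with medians of -0.52 in 5 genes with it and -0.40 in 35 without, for CCAAT, with -0.46 in 18 and -0.34 in 22, and for TTCNNNGAA, with -0.47 in 6 and -0.41 in 34, while for CCGGAAG they were -0.32 in 10 and -0.45 in 30. The ranges with and without a motif overlapped for all 5 motifs. A match of letters is not a binding site.

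The files held 22852648 estimated reads for Huh7-NC and 22089016 for Huh7-si, and 17921 genes had at least 10 reads. BRF2, the siRNA target, had 1281 and 364 reads (log2 ratio -1.77, 95% interval -1.94 to -1.60). All 8 hepatoma markers, such as ALB, AFP and APOB, were expressed in both libraries, whereas 5 endothelial, leukocyte and fibroblast markers together held 67 and 64 reads, with CD3E and DCN at 0 in both. Of these reads, PECAM1 alone held 60 and 63. Ratios are log2 of CPM, which scales reads by each library's sum, in Huh7-si over Huh7-NC, and intervals are exact 95% intervals of counting error alone. Where a pair of values is given, that of Huh7-NC comes first and that of Huh7-si second.

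Nearly all the proteasome genes had lower values in Huh7-si, each by a modest amount. Of the 50 tested members, 45 were lower and 5 were higher, and the interval lay below 0 for 44, above 0 for 5 and over 0 for 1, which was PSMB9. Of all tested genes, 35.2% were lower, and the interval lay below 0 for 19.9% and above 0 for 41.2%. The summed CPM of the tested members was 10575 and 7953, a fall of 24.8%. The median log2 ratio was -0.44 over the members and -0.45 over the 46 protein genes, beside 0.21 over all tested genes and 0.15 over the 14088 tested protein-coding genes.

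A gene was called where its ratio was at least 2-fold or at least 1.5-fold, as stated, and the two-sided exact binomial test on the reads gave an unadjusted p under 0.05. At 2-fold no member was called lower or higher, whereas 1.18% of all tested genes were called lower and 13.0% higher. At 1.5-fold 8 members were called lower, PSMA2, PSMA5, PSMB3, PSMB5, PSMB7, PSMB10, PSMC3 and PSME1, which is 8 of 50 where 3.89% of all tested genes were called lower. The share was larger, 9.55%, among other protein-coding genes of at least 1000 reads and at most 2000 bases. Of the 8, PSMB3, PSMB5 and PSMB7 were no longer past 1.5-fold in TPM (-0.49, -0.45 and -0.47), relative to genes of like length (-0.49 each) or of like reads per TPM (-0.53, -0.50 and -0.50), PSMC3 (-0.38) and PSME1 (-0.57) were not in TPM, and PSMB10 was not after summing with an overlapping gene. One member was called higher, the antisense transcript PSMA3-AS1, where 23.5% of all tested genes were called higher. No tested member's ratio reached 2-fold, so the choice of test could not change that count. At 1.5-fold the 8 lower calls remained by the exact test of edgeR where a biological variation of 0.1 was assumed. None remained where 0.4 was assumed, beside 3.64% and 0.296% of all tested genes called lower in the 2 settings. An unadjusted exact binomial p under 0.05 was found for 49 members, and PSMB9 had a p of 0.178. The nearest share over all tested genes is that of counting intervals, below 0 for 19.9% and above 0 for 41.2%. Such a p was therefore common at this depth.

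**Figure D1:**
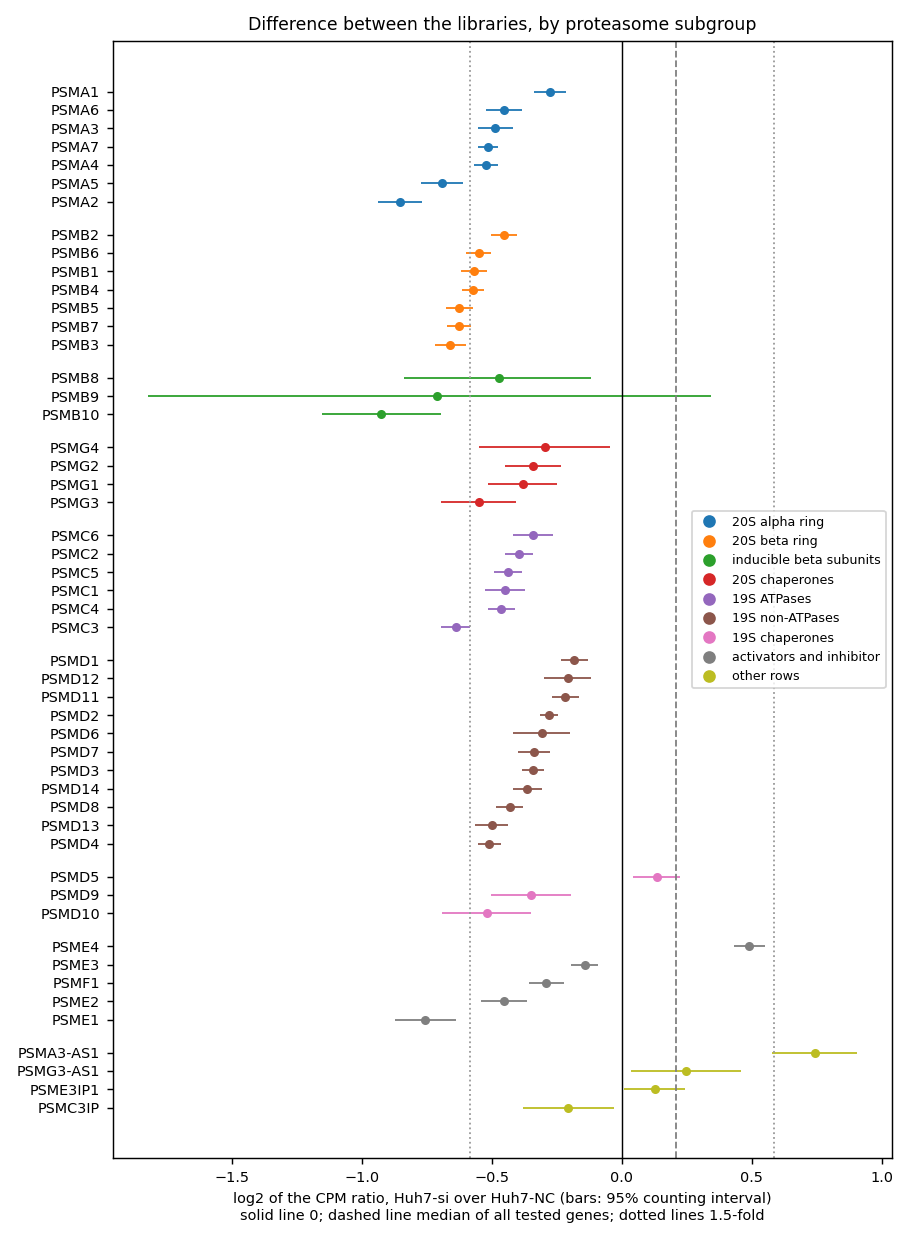
Log2 ratio of CPM, Huh7-si over Huh7-NC (x axis), of the 50 tested members (y axis), coloured by subgroup, with bars for the 95% counting interval, a solid line at 0, a dashed line at the median of all tested genes (0.21) and dotted lines at 1.5-fold. The members of the 20S rings and of the 19S particle all lie left of 0, and PSMD5, PSME4 and 3 of the other rows lie right of it.

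The alpha ring was lower throughout. All 7 tested alpha subunits had an interval below 0, with a median log2 ratio of -0.51 and a range of -0.85 to -0.28. PSMA2 (ENSG00000106588, GRCh38 chr7:42916857-42932223) had 3289 and 1760 reads, or 149 and 89.4 TPM (a level scaled for transcript length and for the library's sum). Its log2 ratio of -0.85 (-0.94 to -0.77), a fall of 44.6%, was the lowest of the alpha subunits. A same-strand gene that overlaps PSMA2, ENSG00000256646, held 1059 and 765 reads, and with both genes' reads summed the log2 ratio was -0.74 (-0.81 to -0.66).

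PSMA5 had 3341 and 1999 reads, with a log2 ratio of -0.69 (-0.77 to -0.61). The alpha subunit with the most reads was PSMA7, with 13288 and 8991 reads, 941 and 744 TPM, and a log2 ratio of -0.51 (-0.55 to -0.48). PSMA1 had the ratio nearest 0, with 4754 and 3794 reads and a log2 ratio of -0.28 (-0.34 to -0.21). The interval of PSMA1 did not meet that of any other alpha subunit, and that of PSMA2 met only that of PSMA5, while those of PSMA3, PSMA4, PSMA6 and PSMA7 overlapped. PSMA8, the alpha subunit of the testis proteasome, had 0 reads in Huh7-NC, which allows up to 3 reads or 0.131 CPM, and 3 in Huh7-si.

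The beta ring, whose genes are mostly short, gave the tightest range of the larger subgroups. All 7 constitutive beta subunits were lower, with a median log2 ratio of -0.57 and a range of -0.66 to -0.45. PSMB5 carries the chymotrypsin-like activity and is the target of bortezomib. It had 7544 and 4731 reads, or 485 and 355 TPM, and a log2 ratio of -0.62 (-0.68 to -0.57). PSMB6, with the caspase-like activity, had 9265 and 6113 reads, or 820 and 626 TPM, and a log2 ratio of -0.55 (-0.60 to -0.50). PSMB7, with the trypsin-like activity, had 9150 and 5731 reads, or 642 and 464 TPM, and a log2 ratio of -0.63 (-0.67 to -0.58). The intervals of the 3 catalytic subunits overlapped one another.

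Among the non-catalytic beta subunits, PSMB3 (ENSG00000277791, GRCh38 chr17:38752736-38764231) had 6028 and 3691 reads, with the lowest log2 ratio of the ring at -0.66 (-0.72 to -0.60). PSMB2 had the ratio nearest 0, with 8136 and 5742 reads and a log2 ratio of -0.45 (-0.50 to -0.40). PSMB4 had the most reads, 12276 and 7980, with a log2 ratio of -0.57 (-0.61 to -0.53). Its TPM of 933 and 696 was close to that of PSMA7, so the top of the TPM range held both an alpha and a beta subunit.

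The inducible catalytic subunits, which replace PSMB5, PSMB6 and PSMB7 in the immunoproteasome, were far less abundant. PSMB10 (ENSG00000205220, GRCh38 chr16:67934502-67937087) had 471 and 240 reads, or 44.8 and 27.7 TPM. Its log2 ratio of -0.92 (-1.15 to -0.70) was the lowest of all tested members. With the reads of ENSG00000261884, a same-strand gene that overlaps it and held 67.5 and 119 reads, the summed log2 ratio was -0.54 (-0.73 to -0.34), which no longer reached 1.5-fold. PSMB8 had 161 and 112 reads, or 9.08 and 6.77 TPM, and a log2 ratio of -0.47 (-0.84 to -0.12).

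PSMB9 had 22 and 13 reads, or 1.46 and 0.94 TPM, and a log2 ratio of -0.71 with an interval of -1.82 to 0.34, so that a difference was not detectable at this depth. PSMB11, the thymic subunit, had 0 reads in both libraries. Within a library, the TPM of PSMB10 was 6.98% of that of PSMB7 in Huh7-NC, against 5.98% in Huh7-si. The ratio of their reads differed by -0.30 on the log2 scale (-0.53 to -0.07), but by 0.09 (-0.11 to 0.29) with the reads of the gene that overlaps PSMB10 added to it. For PSMB8 over PSMB5 the difference was 0.15 (-0.22 to 0.51), and for PSMB9 over PSMB6 it was -0.16 (-1.27 to 0.90), both with 0 inside the interval. Such ratios within a library do not depend on the scaling of the libraries.

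The chaperones of the core particle, PSMG1 with PSMG2 and PSMG3 with PSMG4, form pairs that assemble the alpha ring. All 4 were lower, with a median log2 ratio of -0.36. PSMG3 had 1003 and 662 reads (log2 ratio -0.55, -0.69 to -0.41), and its partner PSMG4 had 301 and 237 reads (log2 ratio -0.29, -0.55 to -0.05). PSMG1 had 1096 and 814 reads (log2 ratio -0.38, -0.51 to -0.25) and its partner PSMG2 had 1623 and 1239 reads (log2 ratio -0.34, -0.45 to -0.23). The intervals of each pair overlapped.

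**Figure D2:**
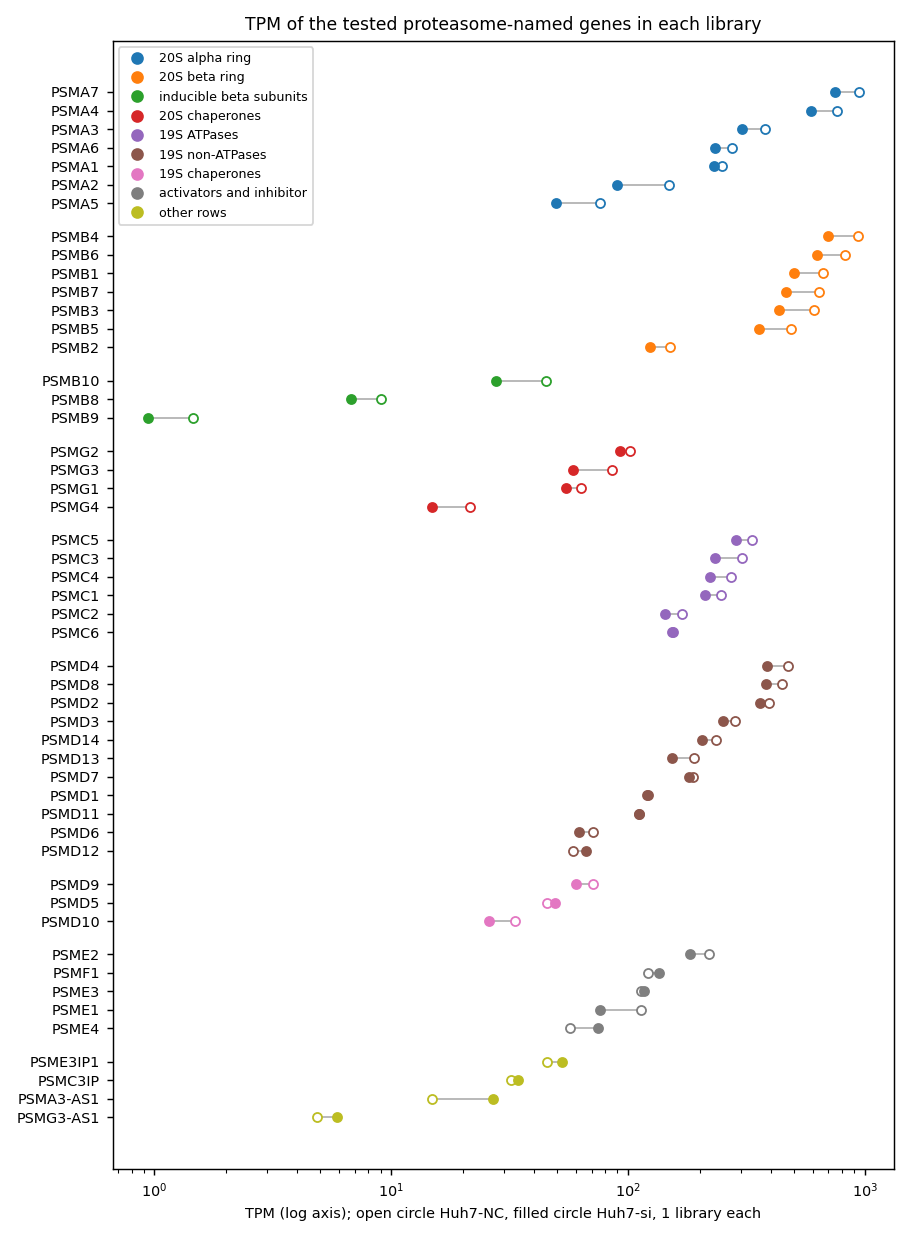
TPM of the 50 tested members (x axis, log scale) in Huh7-NC (open circles) and Huh7-si (filled circles), 1 library each, by subgroup and in order of TPM in Huh7-NC. The 20S subunits reach 941 TPM in Huh7-NC, the inducible beta subunits lie between 1.46 and 44.8 TPM, and the filled circle lies left of the open one for 39 members.

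In the 19S particle all 17 subunits with a PSM name were lower, 6 of 6 ATPases and 11 of 11 non-ATPases, each with an interval below 0. The ATPases had a median log2 ratio of -0.44 and a range of -0.64 to -0.34. PSMC3 was the lowest, with 6770 and 4202 reads, or 302 and 232 TPM, and a log2 ratio of -0.64 (-0.69 to -0.58). PSMC4 had the most reads, 7474 and 5240, with a log2 ratio of -0.46 (-0.51 to -0.41). PSMC6 had the ratio nearest 0, with 3122 and 2384 reads and a log2 ratio of -0.34 (-0.42 to -0.26), but its TPM was level at 154 and 154.

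The non-ATPases make up the lid and the part of the base that receives ubiquitin chains. They had a median log2 ratio of -0.34 and a range of -0.51 to -0.18. At 1.5-fold none of them was called, beside 3.89% of all tested genes called lower and 23.5% called higher. PSMD4, a ubiquitin receptor, was the lowest with 9849 and 6690 reads and a log2 ratio of -0.51 (-0.55 to -0.46). PSMD2, a scaffold of the base, had the most reads of all members, 14630 and 11646, with a log2 ratio of -0.28 (-0.32 to -0.24). PSMD1, the other scaffold, had the ratio nearest 0, with 6745 and 5745 reads and a log2 ratio of -0.18 (-0.23 to -0.13), while its TPM was 120 and 121. PSMD12, named here after its values were seen, was the other non-ATPase whose TPM was not lower, at 58.3 and 66.2.

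The core and the cap were not lower by the same amount. The reads of the 20S rings over those of the 19S subunits with a PSM name differed by -0.17 on the log2 scale between the libraries (-0.19 to -0.15). On the TPM scale the rings held 176% of the 19S sum in Huh7-NC, against 154% in Huh7-si. The reads of the alpha over the beta ring differed by 0.06 (0.03 to 0.09), and those of the non-ATPases over the ATPases by 0.12 (0.10 to 0.15). The 20S genes are also the shorter ones, with a median length of 973 bases in the deposited table against 1631 for the 19S genes. The medians of the 20S rings and of the 19S subunits were -0.56 and -0.36 as such, -0.44 and -0.43 relative to genes of like length, and -0.44 and -0.42 relative to genes of like reads per TPM, so most of the gap between the medians was absent on those scales.

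Of the 19S chaperones, which bind ATPases during assembly, PSMD9 and PSMD10 were lower and PSMD5 was higher. PSMD10, also called gankyrin, had 704 and 475 reads (log2 ratio -0.52, -0.69 to -0.35), and PSMD9 had 796 and 604 reads (log2 ratio -0.35, -0.50 to -0.19). Summed with CFAP251, which overlaps PSMD9 on the same strand, the log2 ratio was -0.22 (-0.37 to -0.07). PSMD5 had 1902 and 2017 reads and a log2 ratio of 0.13 (0.04 to 0.22), a direction that turned under TMM scaling (-0.06), under median-of-ratios scaling (-0.07) and relative to the median of genes of like length (-0.09).

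The alternative activators spread most widely. PSME1 and PSME2 together form the interferon-inducible cap. PSME1 (ENSG00000092010, GRCh38 chr14:24136158-24138967) had 1594 and 913 reads, or 113 and 76.3 TPM, and a log2 ratio of -0.75 (-0.87 to -0.64). PSME2 had 2472 and 1747 reads, or 219 and 182 TPM, and a log2 ratio of -0.45 (-0.54 to -0.36). The 2 intervals did not overlap, and the reads of PSME1 over PSME2 differed by -0.30 on the log2 scale (-0.45 to -0.15).

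PSME3, the nuclear activator, had 6239 and 5463 reads and a log2 ratio of -0.14 (-0.20 to -0.09), while its TPM was 113 and 116. PSME4, the large nuclear activator PA200 (ENSG00000068878, GRCh38 chr2:53864067-53970840), had 3989 and 5416 reads, or 56.5 and 74.6 TPM. Its log2 ratio of 0.49 (0.43 to 0.55) was the highest of the protein genes, but it was -0.05 relative to the median of genes of like length. The reads of PSME4 over PSME3 differed by 0.63 on the log2 scale (0.55 to 0.71). PSMF1, an inhibitor of the core in vitro, had 4110 and 3248 reads and a log2 ratio of -0.29 (-0.36 to -0.22), with a TPM of 121 and 135 that went the other way.

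The other rows did not follow the subunits. PSMA3-AS1, antisense to PSMA3, had 497 and 802 reads and a log2 ratio of 0.74 (0.58 to 0.90), and PSMA3 itself had 4215 and 2909 reads. PSMG3-AS1 had 349 and 400 reads and a log2 ratio of 0.25 (0.04 to 0.46), which was -0.19 relative to genes of like length. PSMC3IP, a protein of meiotic recombination, had 593 and 497 reads and a log2 ratio of -0.21 (-0.38 to -0.03), with a TPM of 32.0 and 34.1. PSME3IP1, which binds PSME3, had 1149 and 1212 reads and a log2 ratio of 0.13 (0.01 to 0.24), which turned to -0.07 under TMM scaling, -0.08 under median-of-ratios scaling and -0.01 under upper-quartile scaling.

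Below 10 reads were PSMB8-AS1 with 4.69 and 1.13 reads, PSMD6-AS2 with 2 and 7, PSMD7-DT with 3 and 4.11, and PSMD6-AS1 with 0 in both. Strandedness is not given in the sources used here, so reads of an antisense transcript and of the gene opposite cannot be told apart where they overlap. Of the 56 members, 30 overlapped another gene with reads, 8 of them on the same strand and 25 on the opposite strand.

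The ratio of a gene went with its length over the whole table, and the proteasome genes were set against this. Over 20 bins of length, the median log2 ratio of all tested genes ran from -0.17 in the bin with a median length of 839 bases to 0.67 in that with a median of 10566 bases. All 46 protein genes lay below the median of their length bin, by a median of -0.42. Since the deposited length of some members was far from that behind their TPM (PSMA4 is listed with 4378 bases), genes were also binned by reads per TPM, and 45 of 46 then lay below their bin, by a median of -0.41, with PSME4 0.10 above it. Across the 46 protein genes, log2 ratio and length had a Spearman rho of 0.51, and log2 ratio and reads one of 0.004, as a description across genes of 1 pair of libraries.

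**Figure D3:**
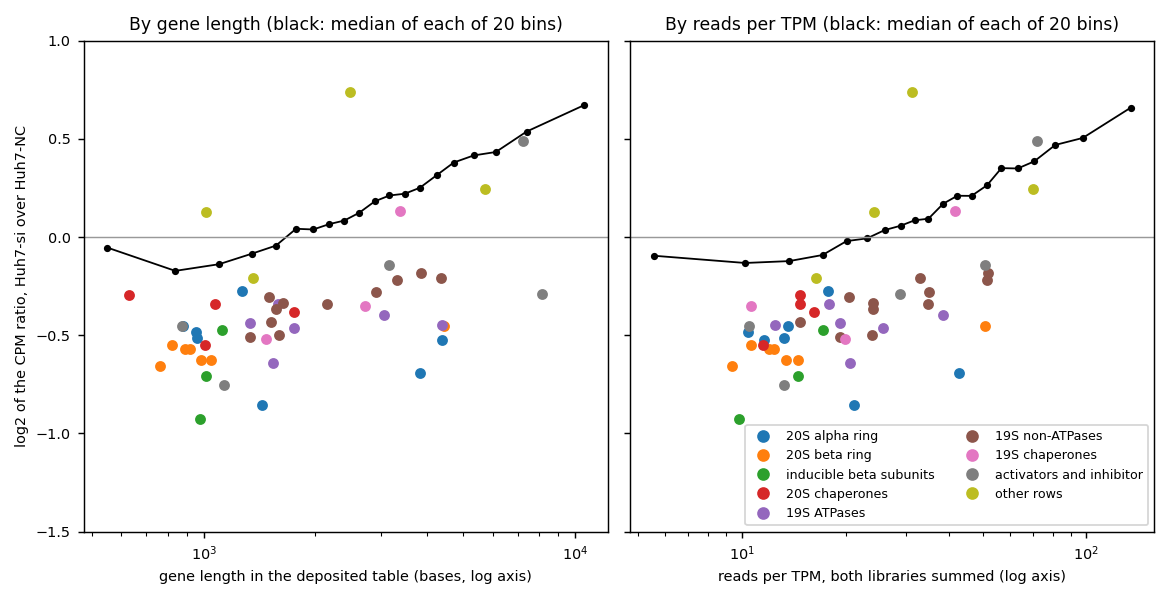
Log2 ratio of CPM, Huh7-si over Huh7-NC (y axis), of the 50 tested members against the deposited gene length in bases (left, log axis) and against reads per TPM (right, log axis), coloured by subgroup, with the median of all tested genes in each of 20 bins in black. The black medians rise to 0.67 and 0.66 at the right. All proteasome protein genes lie below the median of their length bin, and all but PSME4 below that of their reads-per-TPM bin.

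Abundance gave a second background. Of the other protein-coding genes with at least 1000 reads over both libraries, 45.7% were lower, with a median log2 ratio of 0.05, while 40 of 42 proteasome protein genes of that abundance were lower. Among those of at most 2000 bases, 80.5% of the 2022 other genes were lower, with a median log2 ratio of -0.28, and 27 of 27 proteasome genes were lower, with a median of -0.50. At 1.5-fold 9.55% of these other genes and 6 of the 27 proteasome genes were called lower. Among those under 25 reads per TPM, 86.5% of the 1678 other genes were lower, with a median of -0.33, and 29 of 29 proteasome genes were lower, with a median of -0.50. Here 11.6% of the other genes and 6 of the 29 proteasome genes were called lower at 1.5-fold. Short, abundant genes were therefore mostly lower in Huh7-si, and the proteasome median of -0.50 lay between the median of those under 25 reads per TPM and their 10th percentile of -0.60.

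The scale also set the size of the difference. The median log2 ratio of the members was -0.44 on the CPM scale and -0.24 on the TPM scale, with 39 of 50 lower in TPM, beside a median of 0.39 over all tested genes in TPM. TMM, median-of-ratios and upper-quartile scaling moved every log2 ratio by -0.20, -0.21 and -0.13, which brought 27, 28 and 20 members past 1.5-fold on the lower side, where 10.3%, 10.7% and 7.75% of all tested genes then lay.

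Proteins that belong to the proteasome or work with it but carry no PSM name were less uniform. Of 17 such partners, 11 were lower and 6 were higher, where 35.2% of all tested genes were lower. Their median log2 ratio was -0.11, or -0.21 relative to their length bins. In TPM it turned to 0.15, beside 0.39 over all tested genes. At 1.5-fold 2 were called lower, beside 3.89% of all tested genes. These were POMP, the maturation factor of the core, with 3087 and 1604 reads and a log2 ratio of -0.90 (-0.98 to -0.81), and SEM1, the small subunit of the lid, with 3264 and 2076 reads and a log2 ratio of -0.60 (-0.68 to -0.52). At the other end were ECPAS, a proteasome adaptor, with 2954 and 4014 reads (log2 ratio 0.49, 0.42 to 0.56), and ZFAND5, a proteasome activator, with 3818 and 4551 reads (log2 ratio 0.30, 0.24 to 0.36).

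Of 12 genes that control proteasome transcription and the turnover of NFE2L1, 4 were lower and 8 were higher, where 64.8% of all tested genes were higher. They had a median log2 ratio of 0.28, beside 0.21 over all tested genes, and of -0.08 relative to genes of like length. MAFK, a small MAF partner of NFE2L1, had 950 and 1887 reads, and its log2 ratio of 1.04 (0.93 to 1.15) made it the only one of the 12 called at 2-fold, where 13.0% of all tested genes were called higher. At 1.5-fold 3 of the 12 were called higher, MAFK, SEL1L and MAFG (the last named after its values were seen), beside 23.5% of all tested genes. SEL1L, of the ER degradation complex, had 815 and 1441 reads (log2 ratio 0.87, 0.75 to 0.997). The lowest were KEAP1, the adaptor that directs NFE2L2 to degradation, with 4521 and 3460 reads (log2 ratio -0.34, -0.40 to -0.27), and VCP, the segregase that extracts proteins from the ER, with 25592 and 20195 reads (log2 ratio -0.29, -0.32 to -0.27). NFE2L1, added here after its values were seen, had 5116 and 6124 reads and a log2 ratio of 0.31 (0.25 to 0.36), which was -0.07 relative to genes of like length.

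Of 5 ubiquitin precursors and activating enzymes, 4 were lower and 1 was higher, where 35.2% of all tested genes were lower. Their median log2 ratio was -0.28, or -0.30 relative to their length bins. None was called at 1.5-fold, beside 3.89% of all tested genes called lower and 23.5% called higher. RPS27A, a precursor in which ubiquitin is fused to a ribosomal protein, was the lowest, with 14665 and 9474 reads (log2 ratio -0.58, -0.62 to -0.54). The polyubiquitin gene UBB came next, with 39064 and 27252 reads (log2 ratio -0.47, -0.49 to -0.45). UBA6 was the highest, with 768 and 1035 reads (log2 ratio 0.48, 0.34 to 0.62), and UBA1, the main activating enzyme, followed at 8247 and 7826 reads (log2 ratio -0.03, -0.07 to 0.02).

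Interferon and antigen presentation genes were counted because PSMB8, PSMB9, PSMB10, PSME1 and PSME2 are induced with them. Of 16, 11 were lower and 5 were higher, where 35.2% of all tested genes were lower. Their median log2 ratio was -0.09, or -0.19 relative to their length bins. In TPM it turned to 0.07, beside 0.39 over all tested genes. None was called at 1.5-fold, beside 3.89% of all tested genes called lower and 23.5% called higher. The lowest were IFIT3, with 44 and 28.4 reads (log2 ratio -0.58, -1.34 to 0.11), and IFIT2, with 20 and 14 reads (log2 ratio -0.47, -1.56 to 0.59). The highest were NLRC5, with 7 and 13 reads (log2 ratio 0.94, -0.49 to 2.51), and ERAP1, a peptide trimming enzyme, with 642 and 928 reads (log2 ratio 0.58, 0.43 to 0.73).

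**Figure D4:**
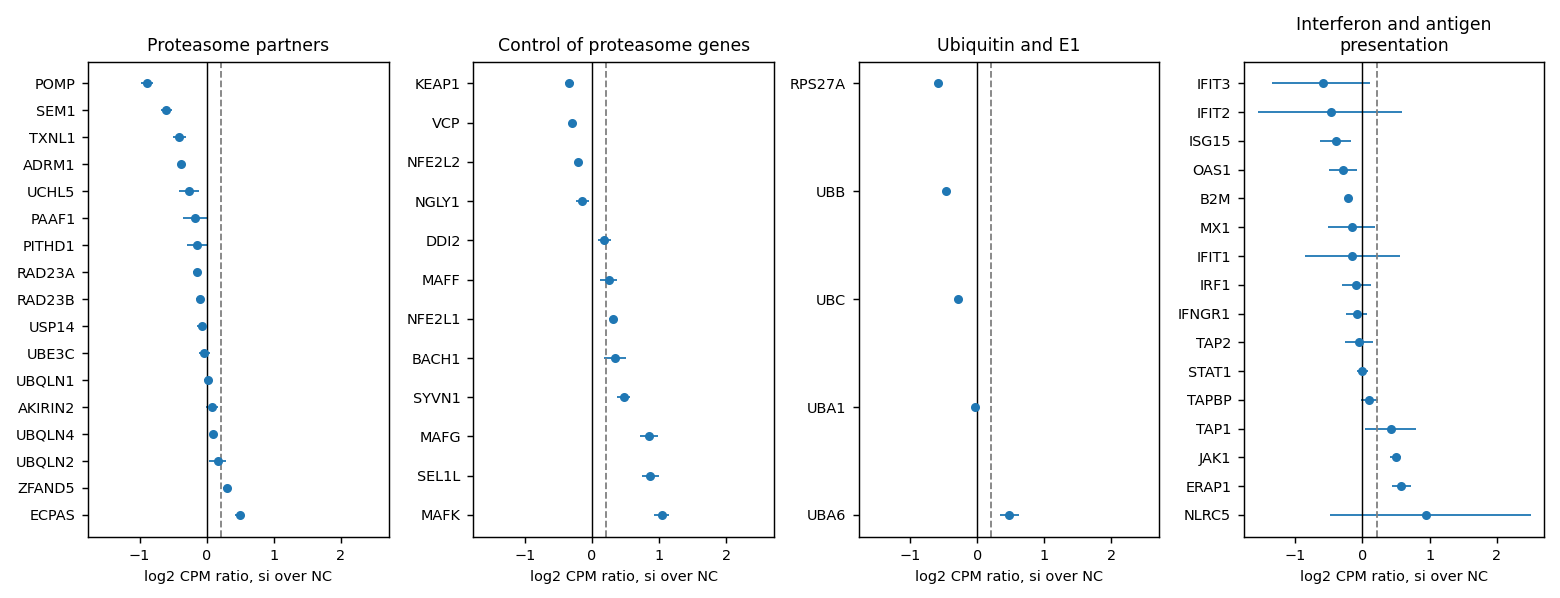
Log2 ratio of CPM, Huh7-si over Huh7-NC (x axis), of the genes of 4 lists (y axis), with bars for the 95% counting interval, a solid line at 0 and a dashed line at the median of all tested genes (0.21). POMP and SEM1 are the lowest partners, at -0.90 and -0.60, and 8 of the 12 control genes lie right of 0.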

How the data were processed

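Total RNA of Huh7 cells was sequenced after a control siRNA or siRNA against BRF2, with 1 library each. The authors deposited 1 table of 61541 genes with estimated counts of reads, not scaled, and TPM per library, and fold, log2 and p-value columns of their own comparison, which were not used. The submitters' processing notes name GRCh37, Bowtie2 2.0.6 and TopHat2 2.0.12, and the counting tool is not given in the sources used here. Positions and types came from GENCODE 29 (GRCh38), which held 94.8% of the identifiers. Promoters came from RefSeq (GRCh38.p14).

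Fold changes were ratios of CPM from the estimated counts. Genes reaching 10 reads in total were tested by a two-sided exact binomial test on rounded reads, given both totals, with unadjusted p. Medians used a pseudocount of 0.5 reads. Intervals were Clopper-Pearson. They and the floor of 3 reads, used where a gene had 0, describe counting error only. Calculations used Python 3.11.15, SciPy 1.17.1, R 4.3.3, edgeR 4.0.16 and DESeq2 1.42.0 (scalings), and were tested on simulated data.

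The members, gene lists and alternatives were chosen with earlier results of these data known. Named were the catalytic beta subunits, activators, inhibitor and core chaperones, the highest, lowest and most abundant member of each other subgroup, members past 1.5-fold, rows without a proteasome protein or under 10 reads, and the 2 highest and 2 lowest genes of each list. Alternatives were other scalings, units, length bins, pseudocounts, filters and tests. Binning by reads per TPM, the protein genes alone and sums with same-strand overlaps were added after seeing the data. One further gene of a list is not reported here.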

Additional observations from a re-analysis of the deposited data

How the results depend on the processing

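No paired analysis was possible because each condition had 1 library, and no replicate could be left out. The members' median stayed negative under all 12 alternatives, and was -0.64 with TMM, -0.65 with DESeq2's size factors (median of ratios), -0.57 with upper-quartile scaling and -0.24 in TPM. In the same order of scalings, the median was -0.77, -0.78 and -0.70 for the beta ring (-0.42 in TPM). With TMM and median of ratios it was -0.64 and -0.65 for the ATPases (-0.23 in TPM), -0.54 and -0.54 for the non-ATPases (-0.16 in TPM), -0.55 and -0.56 for the 19S chaperones, and -0.56 and -0.57 for the core chaperones. Relative to genes of like reads per TPM the core chaperones had -0.25, with a pseudocount of 1 CPM the inducible beta subunits had -0.40, and in TPM the activators and inhibitor reversed to 0.037. Members called lower at 2-fold were 2 with TMM (PSMA2, PSMB10), 2 with DESeq2's size factors (the same genes) and 1 (PSMB10) after upper-quartile scaling, beside 2.02%, 2.09% and 1.66% of all tested genes. Members called lower at 1.5-fold, 8 before, were 27, 28 and 20 with these scalings, 4 in TPM and 0 in the edgeR test that assumed a variation of 0.4, beside 10.3%, 10.7%, 7.75%, 4.03% and 0.296% of all tested genes. The 1 called higher was 0 with TMM, median of ratios, that edgeR test, protein-coding genes and the protein genes alone. In the same order, 16.1%, 15.8%, 3.14%, 20.5% and 23.5% of all genes tested in each setting were called higher. Single genes reversed in TPM (PSMC6 0.0037, PSMD1 0.018, PSME3 0.037, PSMF1 0.16, PSMC3IP 0.091), with TMM (PSMD5 -0.064, PSME3IP1 -0.072), median of ratios (PSMD5 -0.073, PSME3IP1 -0.081) and the upper quartile (PSME3IP1 -0.0050). Relative to like length PSMD5 was -0.087, PSME4 -0.047 and PSMG3-AS1 -0.19, and relative to like reads per TPM PSMD5 was -0.077 and PSMG3-AS1 -0.14. The cause of these changes was not tested, beyond the shift that each scaling applies to every gene. Over the 34 named genes, 314 of the alternative values kept their direction and whether they were called at 1.5-fold, 34 became called (in TPM by fold alone, as for PSMB9) and 14 were no longer called. PSMB9 was never called with a test, and its log2 ratio of -0.71 was -0.57 relative to like length and -0.31 with a pseudocount of 1 CPM. The reads of PSMB10 over PSMB7 reversed to 0.091 with the same-strand overlap. With 1 library each, differences between cultures cannot be told apart from those between conditions. For PSMB9, with 22 and 13 reads, the counting interval included 0, so a difference was not detectable at this depth.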

Other observations

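The offset between the TPM and the CPM scale differed from gene to gene. The log2 ratio in TPM minus that in CPM had a median of 0.18 over 11259 genes with at least 100 reads in each library, with 5th and 95th percentiles of -0.11 and 0.49. Over the 46 proteasome protein genes its median was 0.17, from -0.24 for PSMG4 to 0.45 for PSMF1. It was 0.39 for PSMD12 and 0.34 for PSMC6, both of whose read counts were lower and TPM values not lower in Huh7-si.

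The deposited length and the reads per TPM did not go together for every member. PSMA4 and PSMC1 were listed with 4378 and 4390 bases, and PSMA6 with 879, while in Huh7-NC PSMA4 had 9390 reads at 758 TPM, PSMC1 3342 reads at 247 TPM and PSMA6 4058 reads at 274 TPM.

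The 42 rows of proteasome pseudogenes held 361 and 208 reads. Nearly all of these were on PSMC1P1, with 361 and 205 reads, a copy of PSMC1, so the division of reads between both is uncertain.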
